A study of Mus musculus with 10 samples.

Results

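The genes described here are 4 mast cell proteases and 1 receptor: the chymases Mcpt4 and Cma1, the tryptases Tpsb2 and Tpsab1, and Mrgprb1, a Mas-related G protein-coupled receptor. They are 5 of the 54532 genes of the deposited expression table and were taken by symbol, as genes of connective tissue mast cells, apart from the genes of basophils. The members were selected on the measured FPKM of DUSP6 KO against WT spleens, which was known from earlier work on these libraries, so their levels and the difference between the groups are given as a description and no p-value or model interval is printed for a member. RNA was sequenced from whole spleens of 10 mice, 5 DUSP6 KO (Dusp6tm1Jmol, a germline deletion of the ERK phosphatase DUSP6; the labels word it as DUSP6 Knockdown) and 5 WT (C57BL/6J). All 10 animals had KRN serum-induced arthritis (KSIA) and were taken on day 9: every mouse, WT included, had received 100 µL of pooled arthritogenic KRN x NOD F1 serum intraperitoneally on days 0 and 2. The mice were 8 to 12 weeks old, and no spleen without arthritis is among the libraries, so a change caused by the serum itself cannot be read from these values. Each line was purchased, and neither the strain background of the DUSP6 KO line nor littermate controls are given in the sources used here, so the deletion and other differences between the lines cannot be told apart. Both sexes were used in the study and the sex of each library is not given in the labels.

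Mast cells store serine proteases at high density in their granules, bound to the proteoglycan serglycin, and release them when IgE, IgG complexes or basic peptides trigger degranulation. Chymases cut after aromatic residues and tryptases after lysine or arginine, and both are held to act on matrix, cytokines and peptides in inflamed tissue. Connective tissue mast cells carry Mcpt4, Cma1, Tpsb2 and Tpsab1, mucosal mast cells carry Mcpt1 and Mcpt2, and basophils carry Mcpt8 and Prss34, related proteases that lie in the same gene clusters. The spleen is poor in mast cells, and in a bulk library fewer mast cells and less RNA per mast cell cannot be told apart.

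The start of the mature enzyme shows how alike the proteases are whose reads have to be kept apart, so 60 coding bases are shown for 4 members, for the mucosal chymase Mcpt2 and for the basophil protease Mcpt8. The sequences come from GENCODE M21 transcripts (GRCm38), run 5′ to 3′ on the coding strand and begin where the activation peptide is cleaved off; capitals mark the codons of the first 4 residues of the mature protease, which read Ile-Ile-Gly-Gly in the chymases, Ile-Val-Gly-Gly in the tryptases and Ile-Ile-Trp-Gly in Mcpt8. Mcpt4 is printed from exon 2, chr14:56061660-56061719 on the minus strand, and Cma1 from exon 2, chr14:55943785-55943844, also on the minus strand. Mcpt2 is printed from exon 2, chr14:56042706-56042765, plus strand, and Mcpt8 from exon 2, chr14:56083886-56083945, minus strand. Tpsb2 is printed from exon 3, chr17:25366783-25366842, plus strand, and Tpsab1 from exon 2, chr17:25345133-25345192, minus strand.
Mcpt4: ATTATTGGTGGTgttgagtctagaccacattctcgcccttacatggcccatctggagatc
Mcpt2: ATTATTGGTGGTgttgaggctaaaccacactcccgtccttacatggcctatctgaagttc
Cma1: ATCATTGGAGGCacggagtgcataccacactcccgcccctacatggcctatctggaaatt
Mcpt8: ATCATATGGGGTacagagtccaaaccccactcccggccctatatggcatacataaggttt
Tpsb2: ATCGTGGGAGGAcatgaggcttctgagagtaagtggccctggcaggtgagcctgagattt
Tpsab1: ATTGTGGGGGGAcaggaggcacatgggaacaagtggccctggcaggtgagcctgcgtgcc

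Over these 60 bases Mcpt4 differed from Mcpt2 at 8 positions, from Cma1 at 15, from Mcpt8 at 24 and from Tpsb2 at 36, and the tryptases Tpsb2 and Tpsab1 differed from each other at 14. Over the whole coding sequence Mcpt4 was 86.8% identical to Mcpt1, 84.1% to Mcpt9 and 80.1% to Mcpt2, with longest identical runs of 46, 56 and 33 bases. Mcpt4 and Cma1 aligned over only 170 bases, at 81.2% identity, and shared no run longer than 27 bases. Mcpt4 and Mcpt8 gave no alignment and shared at most 11 bases in a row. The tryptases Tpsb2 and Tpsab1 were 76.97% identical over 812 bases, with a longest shared run of 39. How the counting treated reads that fit several genes, and whether it used strand, is not given in the sources used here, so the split of reads between Mcpt4, Mcpt1, Mcpt9 and Mcpt2 and between the tryptases is uncertain to that extent. No member overlaps another annotated gene.

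Expression was deposited as FPKM, fragments per kilobase of transcript scaled to the mapped fragments of the library, which is a level per length, so that genes can be compared with each other. Multiplied by gene length, the values of a library were whole multiples of 1 step within 0.001 of a read, and reads per gene were recovered from them. A DUSP6 KO library held 14990474 to 19822673 reads over all genes and a WT library 15611652 to 18422147. Dusp6 itself stood at 0.308 to 0.624 FPKM for the 5 DUSP6 KO mice and at 16.6 to 24.0 FPKM for the 5 WT mice, so no library went against its genotype label. One read was worth 0.0417 to 0.0616 FPKM for Mcpt4, so the members were read from few molecules. Libraries are named by genotype and animal number.

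Mcpt4 (ENSMUSG00000061068, chr14:56059629-56062313, minus strand), the main chymase of mouse connective tissue mast cells and the functional counterpart of human chymase, was the most abundant member in the DUSP6 KO spleens. Its level in the DUSP6 KO libraries was 4.93 FPKM in DUSP6 KO 26, 6.41 in DUSP6 KO 21, 2.28 in DUSP6 KO 73, 4.21 in DUSP6 KO 01 and 4.90 in DUSP6 KO 03. In the WT libraries it was 0.422 FPKM in WT 65, 1.09 in WT 67, 0.994 in WT 73, 1.25 in WT 77 and 0.353 in WT 83. Every DUSP6 KO library lay above every WT library, and DUSP6 KO 73 was the lowest of its group. The same values in reads were 37 to 138 for DUSP6 KO and 7 to 23 for WT. The mean over the DUSP6 KO mice was 4.54 ± 1.499 FPKM (SD, n = 5) and that over the WT mice 0.821 ± 0.407 FPKM (SD, n = 5), a ratio of 5.54. On the scale of log2(FPKM + 0.1) the difference was 2.40, beside a spread within the groups of 0.64 (SD).

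Cma1 (ENSMUSG00000022225, chr14:55941451-55944675, minus strand), the alpha-chymase that has gained an elastase-like specificity in rodents, did not follow Mcpt4. It stood at 3.20 FPKM in DUSP6 KO 26, 2.31 in DUSP6 KO 21, 1.63 in DUSP6 KO 73, 1.69 in DUSP6 KO 01 and 1.33 in DUSP6 KO 03. Among the WT libraries it was 1.82 FPKM in WT 65, 3.99 in WT 67, 1.44 in WT 73, 2.37 in WT 77 and 1.33 in WT 83. The groups overlapped over nearly their whole range, and the highest library of all was WT 67. The mean over the DUSP6 KO mice was 2.03 ± 0.74 FPKM (SD, n = 5) and that over the WT mice 2.19 ± 1.08 FPKM (SD, n = 5). The difference on the log2 scale was -0.06, beside a spread within the groups of 0.55 (SD).

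Tpsb2 (ENSMUSG00000033825, chr17:25366550-25368094, plus strand) encodes the tryptase that forms heparin-bound tetramers in mouse mast cell granules. The DUSP6 KO libraries held 2.93 FPKM in DUSP6 KO 26, 1.71 in DUSP6 KO 21, 1.70 in DUSP6 KO 73, 1.58 in DUSP6 KO 01 and 2.79 in DUSP6 KO 03. The WT libraries held 0.697 FPKM in WT 73, 0.779 in WT 77 and 0.413 in WT 83, and no read in WT 65 or WT 67. A count of 0 allows up to 3 reads, which is 0.162 FPKM in WT 65 and 0.145 FPKM in WT 67, for counting error only. Every DUSP6 KO library was above every WT library, at 27 to 59 reads against 0 to 14. The mean over the DUSP6 KO mice was 2.14 ± 0.66 FPKM (SD, n = 5) and that over the WT mice 0.378 ± 0.371 FPKM (SD, n = 5), a ratio of 5.67. The log2 difference was 2.74, beside a spread within the groups of 1.15 (SD). It depends on the pseudocount and on the pair of libraries without a read, and was 1.61 without WT 65 and WT 67.

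**Figure D1:**
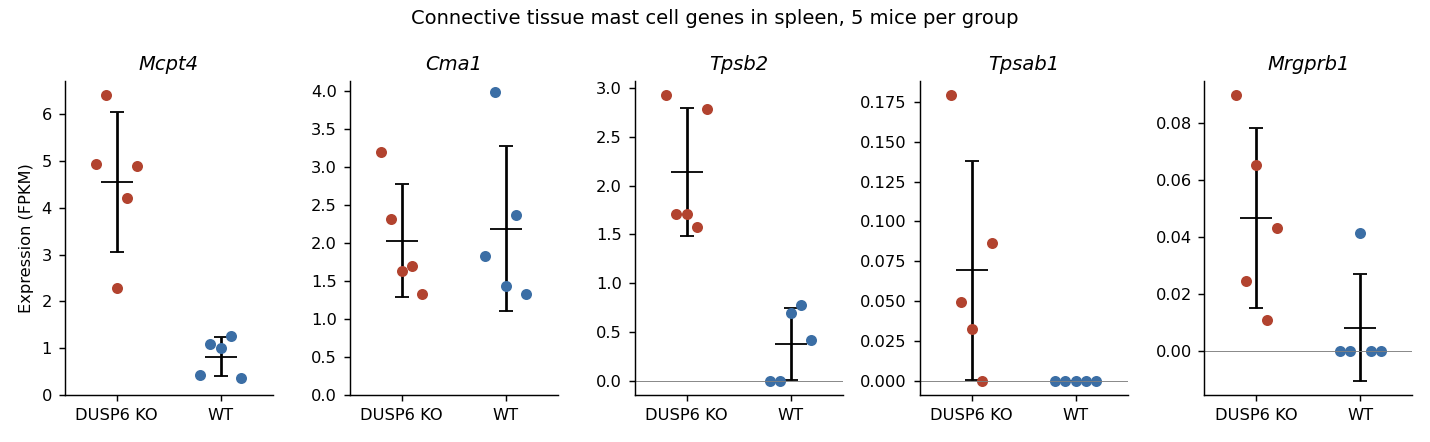
Expression in FPKM (vertical axes, a separate scale for each gene) of Mcpt4, Cma1, Tpsb2, Tpsab1 and Mrgprb1 in 5 DUSP6 KO (red) and 5 WT (blue) spleens; each point is 1 library, and the black bars are the mean ± SD. For Mcpt4 the lowest DUSP6 KO library (2.28 FPKM) is above the highest WT library (1.25 FPKM), for Tpsb2 likewise (1.58 against 0.779 FPKM), and for Cma1 the groups overlap.

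Tpsab1 (ENSMUSG00000024173, chr17:25343245-25345562, minus strand) is the second tryptase gene of the cluster. The deposited table and GENCODE list it as protein-coding and RefSeq as a transcribed pseudogene, and its tryptase is known to be missing from mast cells of C57BL/6 mice. It had 7 reads in DUSP6 KO 26, 2 in DUSP6 KO 21, 1 in DUSP6 KO 73, 0 in DUSP6 KO 01 and 3 in DUSP6 KO 03, and 0 reads in each of the 5 WT libraries. The 13 reads of the DUSP6 KO group were thus set against none, and more than 1 in 2 of them came from DUSP6 KO 26. Against a floor of 3 reads over the WT group, and allowing for library size, the DUSP6 KO level was at least 4.19-fold higher, and at least 2.43-fold higher without DUSP6 KO 26, where 6 reads are left. These bounds do not include the counting error of the DUSP6 KO reads themselves. In FPKM the DUSP6 KO mean was 0.0694 ± 0.0688 (SD, n = 5), while 3 reads in a WT library would be 0.0750 to 0.0862 FPKM, so a level like the DUSP6 KO mean could not have been told from 0 in a single WT library.

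Mrgprb1 (ENSMUSG00000070547, chr7:48444113-48456342, minus strand) belongs to the receptor family whose member Mrgprb2 lets basic peptides and many drugs trigger mast cells without IgE. Its reads were 7 in DUSP6 KO 26, 2 in DUSP6 KO 21, 4 in DUSP6 KO 73, 1 in DUSP6 KO 01 and 3 in DUSP6 KO 03. Among the WT libraries WT 73 had 3 reads and the other 4 had 0. The groups overlapped, because WT 73 lay within the DUSP6 KO range. The sum was 17 reads in DUSP6 KO against 3 in WT, a ratio of 5.48 after allowing for library size. Of the 17 reads, 7 came from DUSP6 KO 26, and without that library the ratio was 4.05. No interval is given, since the gene was chosen on this contrast and pooled reads leave out the spread between mice. Mrgprb2 had 1 read, in DUSP6 KO 21, and none in the other 9 libraries.

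A mean of at least 0.1 FPKM over the 10 libraries was asked of a gene before it entered the fit, which 21296 genes and 3 of the 5 members reached; Tpsab1 and Mrgprb1 did not. Mcpt4 and Tpsb2, 2 members, had an unadjusted p under 0.05 with a higher level in DUSP6 KO, where 2.62% of all genes tested did; the members were chosen on this contrast, so nothing is read from that count. At an adjusted p of 0.05 or less (limma, Benjamini-Hochberg) 0 members were called, with 0.0704% of all genes called, and limma voom on the recovered reads called 0 at that threshold and 2 at the unadjusted one. One member was called after adjustment without DUSP6 KO 73. The paper's own test on read counts listed Mcpt4 as higher after adjustment, and the limma fits used here are a different test. Mcpt4 and Tpsb2 were also the 2 members whose DUSP6 KO libraries all lay above all WT libraries, against 0.549% of all genes tested. Nothing is read from this count either, since the members were chosen on this contrast. Tpsab1 was below the filter and had 0 to 7 reads per DUSP6 KO library, so the share of genes tested does not cover it.

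Because Cma1 did not move with the others, the make-up of the protease transcripts differed between the groups. The ratio of Mcpt4 to Cma1 was 1.54 in DUSP6 KO 26, 2.77 in DUSP6 KO 21, 1.40 in DUSP6 KO 73, 2.48 in DUSP6 KO 01 and 3.69 in DUSP6 KO 03. In the WT libraries the ratio was 0.231 in WT 65, 0.273 in WT 67, 0.692 in WT 73, 0.526 in WT 77 and 0.265 in WT 83. Mcpt4 exceeded Cma1 in 5 of 5 DUSP6 KO libraries and in 0 of 5 WT libraries. This ratio is taken within a library and does not depend on its scaling. Of the summed FPKM of the 4 proteases, Mcpt4 made up 40.4 to 61.1% in DUSP6 KO and 16.8 to 31.8% in WT, while Cma1 made up 14.6 to 28.8% in DUSP6 KO and 45.9 to 81.2% in WT. Tpsb2 relative to Mcpt4 ran from 0.267 to 0.748 in DUSP6 KO and from 0 to 1.17 in WT, overlapping ranges. The sum of the 4 proteases was 5.64 to 11.2 FPKM in DUSP6 KO and 2.10 to 5.08 FPKM in WT.

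**Figure D2:**
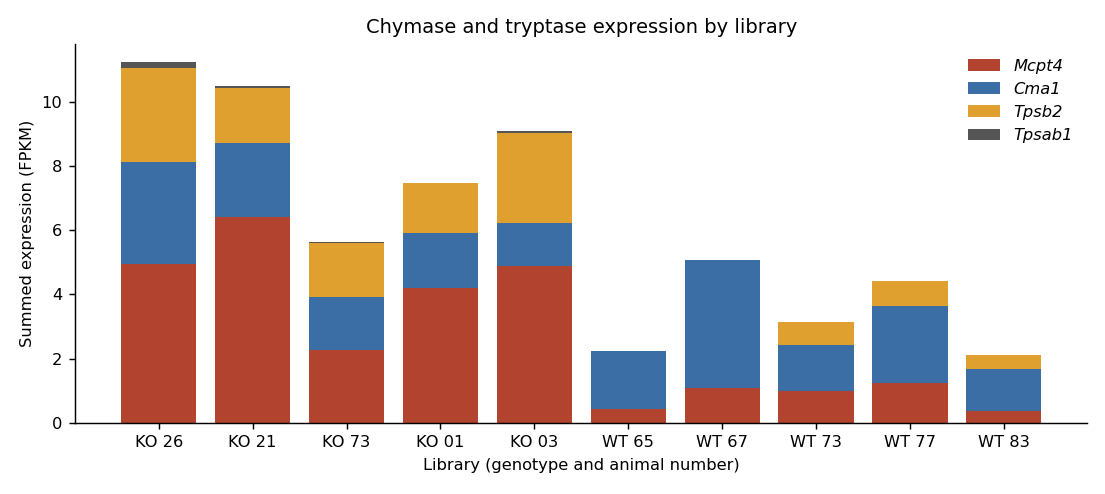
Stacked bars of the FPKM of Mcpt4, Cma1, Tpsb2 and Tpsab1 in each of the 10 libraries (horizontal axis, genotype and animal number). The DUSP6 KO bars reach 5.64 to 11.2 FPKM with Mcpt4 larger than Cma1 in each, and the WT bars reach 2.10 to 5.08 FPKM with Cma1 larger than Mcpt4 in each.

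Ordered by level per length, the DUSP6 KO spleens had Mcpt4 first, then Tpsb2 and Cma1, whose means lay within 1 SD of each other, then Tpsab1 and Mrgprb1 close to the level of single reads. The WT spleens had Cma1 first, then Mcpt4 and Tpsb2, whose means differed by little more than 1 SD of either, then Mrgprb1 and Tpsab1 at or near 0. Mast cell transcripts were thus present in all 10 spleens, since Cma1 had at least 24 reads and Mcpt4 at least 7 reads in every library.

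Other mast cell genes were read from a list of 12 that holds no member, of which 7 passed the filter on low values. Mcpt9, Cma2, Tpsg1, Mrgprb2 and Tph1 did not pass, so the counts do not cover them. Which cells the transcripts of the 7 came from was not tested. At an unadjusted p under 0.05, 0 of the 7 were higher and 0 were lower in DUSP6 KO, by limma and by limma voom alike, and their median log2 difference was -0.07 beside -0.005 for all genes tested. The background of genes lower in DUSP6 KO at that threshold was 3.03%. The highest of the list was Mcpt2, a chymase-like protease of mucosal mast cells whose sequence is the closest to Mcpt4 among those printed. Mcpt2 passed the filter through the DUSP6 KO group alone (0.338 FPKM on average, against 0.0927 FPKM in WT), so its difference is a description. Its reads were 8, 1, 11, 3 and 7 in DUSP6 KO 26, 21, 73, 01 and 03, and 0, 5, 3, 0 and 1 in WT 65, 67, 73, 77 and 83. The groups overlapped and the log2 difference of 1.13 had a 95% interval of -0.08 to 2.34 (limma, adjusted p = 0.922). Without DUSP6 KO 21, or without WT 67, Mcpt2 passed the unadjusted threshold and the count of higher genes was 1. The lowest of the list was Slc18a2, the vesicular transporter that loads amines into granules, at -0.25 (95% interval -0.55 to 0.04). Mcpt1, the other mucosal chymase, had 1 to 16 reads per library and a log2 difference of -0.05 (95% interval -1.40 to 1.31).

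Kit, the receptor for stem cell factor that mast cells depend on, was looked at after its values were known. It stood at 5.63 ± 0.48 FPKM (SD, n = 5) among DUSP6 KO and 5.92 ± 0.39 FPKM (SD, n = 5) among WT libraries, a log2 difference of -0.07 with a 95% interval of -0.26 to 0.12. Kit is also transcribed in blood progenitors of the spleen. Of the further mast cell genes below the filter, Cma2 had 0 reads in all 10 libraries and Mcpt9 had 3 reads in WT 77 alone. Tpsg1, the membrane-anchored tryptase next to Tpsb2, had 4 reads in DUSP6 KO 21 alone.

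Most receptors, enzymes and regulators that mast cells share with basophils had a negative log2 difference, and a minority passed the unadjusted threshold. All 8 were tested; at an unadjusted p under 0.05, 0 were higher and 3 were lower among DUSP6 KO libraries, 0 passed adjustment, and the median log2 difference was -0.48. The other 5 lay between -0.70 (Fcer1a) and 0.04 (Hpgds) with intervals that include 0, and 3.03% of all genes tested were lower at that threshold. The 3 were Ms4a2, the beta chain of the high-affinity IgE receptor (-0.996, 95% interval -1.46 to -0.53), Hdc, which makes histamine (-0.74, -1.43 to -0.05), and Alox5, which starts leukotriene synthesis (-0.61, -1.14 to -0.09). Without DUSP6 KO 01 or without WT 73 only Ms4a2 remained below the threshold. Hdc was also not called without DUSP6 KO 73, DUSP6 KO 03, WT 65 or WT 77. The same held for Hdc with DUSP6 KO 73 and WT 67, or WT 65 and WT 67, left out together. Alox5 was also not called without DUSP6 KO 26. Ms4a2 was one of the genes with every DUSP6 KO library below every WT library, as 0.563% of all genes tested were. Cpa3, the mast cell carboxypeptidase that is stored together with Cma1, was also singled out after its values were seen. It stood at 1.49 ± 0.61 FPKM (SD, n = 5) among DUSP6 KO and 1.91 ± 0.86 FPKM (SD, n = 5) among WT libraries, with overlapping groups.

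Of 6 basophil genes 5 were tested. At an unadjusted p under 0.05, 3 of them were lower in DUSP6 KO by limma and 2 by limma voom, beside 3.03% of all genes tested by limma. None passed after adjustment, and 1 did when WT 65 was left out. The list was chosen with earlier results of these data known, so these counts are a description. Prss34, a basophil tryptase-like protease, had 1.27 to 4.41 FPKM in DUSP6 KO and 5.69 to 23.1 FPKM in WT (log2 difference -2.13, 95% interval -2.99 to -1.28; limma, adjusted p = 0.193). Mcpt8 had 1.34 to 2.17 FPKM in DUSP6 KO and 2.29 to 12.7 FPKM in WT (log2 difference -1.67, 95% interval -2.47 to -0.87; limma, adjusted p = 0.311). Both had every DUSP6 KO library below every WT library, as 0.563% of all genes tested did. The paper's own test on read counts listed Prss34 as lower after adjustment, unlike the limma fit with all libraries. Il4 was the third, at -0.54, and it was not called without DUSP6 KO 26, DUSP6 KO 73, WT 67 or WT 77. The ratio of Mcpt4 to Mcpt8 was 1.08 to 4.29 in DUSP6 KO and 0.0568 to 0.194 in WT.

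**Figure D3:**
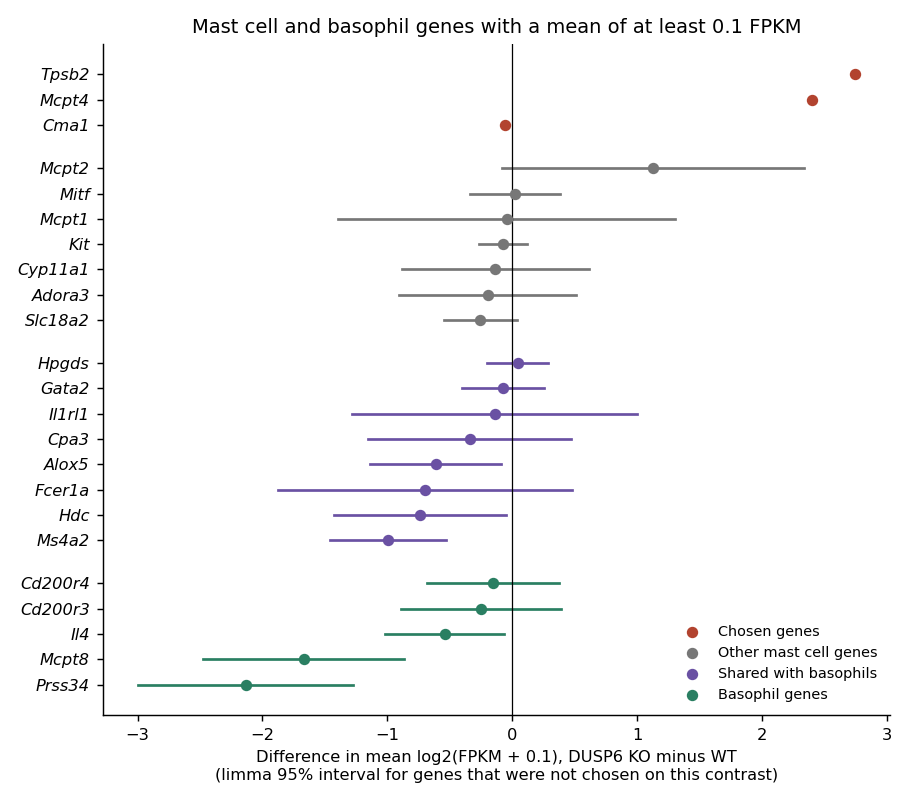
Difference in mean log2(FPKM + 0.1) between DUSP6 KO and WT (horizontal axis, positive where DUSP6 KO is higher) for the chosen genes (red, points alone) and, with the 95% limma interval, for other mast cell genes (grey), genes shared with basophils (purple) and basophil genes (green) that reached a mean of 0.1 FPKM. Tpsb2 and Mcpt4 lie at 2.74 and 2.40, Cma1 and Kit near 0, and Mcpt8 and Prss34 at -1.67 and -2.13.

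Genes that pack and activate the proteases, or block them, were examined as further parts of the pathway. Among 6 granule matrix and maturation genes, 2 were higher and 1 was lower at an unadjusted p under 0.05, with 0 after adjustment. Of all genes tested, 2.62% were higher and 3.03% lower at that threshold. These were Ndst2 (0.19), which sulfates granule heparin, Ctsl (0.25), a lysosomal cysteine protease, and Srgn (-0.28), the serglycin core protein, and they are transcribed in many spleen cells. None of the 3 was called when DUSP6 KO 73 was left out or when the libraries with adipose or pancreas transcripts were omitted. Ndst2 was not called by limma voom, nor Srgn after quantile normalization or with FPKM from read totals. Of the fits without 1 library, only those without DUSP6 KO 26 or WT 77 called all 3. Of 6 inhibitors of chymase-like proteases, Serpinb1a alone was lower (-0.29), and it was not called without DUSP6 KO 01 or without WT 73, after quantile normalization, by limma voom, with FPKM from read totals or when the libraries with adipose or pancreas transcripts were omitted. Among 7 mast cell growth factors 5 were tested and 0 were called in either direction by limma. Il3 and Il9 had 0 reads in all 10 libraries, and Kitl, which encodes stem cell factor, had the highest log2 difference of its list, 0.05.

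Mcpt4 and Cma1 lie 115 kb apart in the chymase cluster on chromosome 14, and Tpsb2 and Tpsab1 lie 20.99 kb apart in the tryptase cluster on chromosome 17; none of the 5 members is on chromosome 10 with Dusp6. Genes within 300 kb were taken in order to see whether their levels went with those of the members. From Cma1 towards Gzmb the order of the genes that reached the filter was Cma1 (-0.06), Mcpt-ps1 (0.55), Gm5801 (-0.14), Mcpt1 (-0.05), Mcpt2 (1.13), Mcpt4 (2.40), Mcpt8 (-1.67), Ctsg (-1.21), Gzmc (-1.07) and Gzmb (-0.22), each a log2 difference of DUSP6 KO minus WT. The differences of Mcpt2 and Mcpt4 were thus positive and those of Mcpt8 and Ctsg, which follow them in this order, negative. The limma intervals of Mcpt2 (-0.08 to 2.34) and Ctsg (-2.43 to 0.012) include 0, so the direction of these genes is not fixed. Mcpt4 was chosen on this contrast. The start sites of Mcpt4 and Mcpt8 are 23.0 kb apart. Of 30 other genes tested around the chymases, 0 were higher and 2, Mcpt8 and Gzmc, were lower at an unadjusted p under 0.05. Around the tryptases 17 other genes were tested, with Tmem204 higher (0.29) and Prss34 lower. The shares of all genes tested were 2.62% higher and 3.03% lower, and none of these genes passed adjustment with all 10 libraries. Prss34 and Tpsb2, whose start sites are 68.2 kb apart, had the lowest and the highest log2 difference of the tryptase region. Around Mrgprb1, 12 of 15 other genes had no read and none reached the filter.

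Promoters of 3 of the 5 members were matched in the RefSeq table for GRCm38.p6 and were read because Mcpt4 and Cma1, neighbours in 1 cluster, differed in their levels between the groups. The 250 bases before the start site are given 5′ to 3′ on the strand of the gene: Mcpt4 at chr14:56062311-56062560 and Cma1 at chr14:55944676-55944925, both on the minus strand. Capitals mark GATAA on either strand (TTATC where it lies on the opposite one), the core bound by GATA factors such as the mast cell regulator GATA2, and TATAAA on the strand of the gene.
Mcpt4: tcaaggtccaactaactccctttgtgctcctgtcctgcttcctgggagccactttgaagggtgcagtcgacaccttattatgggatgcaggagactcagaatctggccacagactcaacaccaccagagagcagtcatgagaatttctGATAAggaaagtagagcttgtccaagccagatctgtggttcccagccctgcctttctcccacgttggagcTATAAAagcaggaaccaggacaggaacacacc
Cma1: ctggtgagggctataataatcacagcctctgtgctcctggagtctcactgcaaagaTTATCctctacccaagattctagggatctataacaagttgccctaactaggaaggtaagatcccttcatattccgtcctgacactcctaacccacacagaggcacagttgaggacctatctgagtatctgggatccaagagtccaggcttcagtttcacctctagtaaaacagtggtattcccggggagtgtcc

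Mcpt4 held GATAA on its own strand from position -102, as part of TGATAA from -103, and TATAAA from -32, counted from the start site. Cma1 held GATAA on the opposite strand from position -194 and no TATAAA. In Mrgprb1 (chr7:48456343-48456592, minus strand) neither was found. GATAA on either strand was present in 22.6% of the 32851 promoters of the table, TGATAA, which contains it, in 7.94% and TATAAA in 7.59%. CATGTG, a motif bound by MITF, was in 12.3% of all promoters and in none of the 3. These are matches of letters in a window and describe no binding.

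Over the 10 libraries the genes whose log2 values followed Mcpt4 most closely, among 16230 genes with a mean of at least 10 reads, were Gm13127 (Pearson r = 0.93), Spry4 (0.92), Gm7993 (0.92), Ifi44l (0.90) and Atg2a (0.90). Among those closest to Tpsb2 were Gm9320 (0.96), Adgrb1 (0.93), Gucy2g (0.93) and Hsd11b1 (0.92). Each of these genes had a higher mean in DUSP6 KO than in WT, so each r contains the difference between the genotypes that chose the members. Tpsb2 ranked 61 among the genes most like Mcpt4, with r = 0.79, and Cma1 ranked 4604, with r = 0.17. Spry4, itself a feedback gene of the ERK pathway, stood at 2.20 ± 0.53 FPKM (SD, n = 5) among DUSP6 KO and 1.26 ± 0.18 FPKM (SD, n = 5) among WT libraries.

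Transcripts of tissues next to the spleen were unevenly spread over the libraries and are set beside the members. The summed FPKM of 6 adipose genes was 42.6 in DUSP6 KO 73 and 55.9 in WT 67, and at most 0.478 in the other DUSP6 KO and 1.09 in the other WT libraries. The sum of 7 exocrine pancreas genes was 14240 FPKM in WT 67 and 182 in WT 65, and 9.55 to 26.2 in the other 8. In those 8 it was nearly all Cela1 (9.46 to 26.1 FPKM), and each other pancreas gene was at most 0.296 FPKM. WT 65 and WT 67 were the libraries without a Tpsb2 read, WT 67 had the highest Cma1 and DUSP6 KO 73 had the lowest Mcpt4 of its group. Without DUSP6 KO 73 and WT 67, Mcpt4 was 5.11 ± 0.93 FPKM (SD, n = 4) among DUSP6 KO and 0.754 ± 0.437 FPKM (SD, n = 4) among WT libraries. Without WT 65 and WT 67, Tpsb2 was 2.14 ± 0.66 FPKM (SD, n = 5) among DUSP6 KO and 0.630 ± 0.192 FPKM (SD, n = 3) among WT libraries, and the lowest DUSP6 KO library stayed above the highest WT library. The part of these tissues in the levels of the members was otherwise not tested.

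Mast cells lie in connective tissue, so stroma and capsule genes are given as well. The summed FPKM of 8 fibroblastic stroma genes was 67.1 to 104.8 in DUSP6 KO and 63.0 to 85.1 in WT. Of these, 2 of 8 passed an unadjusted p under 0.05 with a higher DUSP6 KO level, beside 2.62% of all genes tested. They were Pdgfrb (0.57) and Dpt (0.33), with 0 after adjustment. Dpt was not called without DUSP6 KO 26, DUSP6 KO 21, WT 65, WT 73 or WT 83. The sum of 6 mesothelial genes was 2.62 to 4.99 FPKM in DUSP6 KO and 3.69 to 13.9 FPKM in WT, where Krt19 was lower in DUSP6 KO (-1.45) with all 10 libraries but was called in only 2 of the 10 fits that left out 1 library. All 7 spleen markers passed the filter, with Tlx1 higher in DUSP6 KO (0.58) and sums of 447 to 708 FPKM in DUSP6 KO and 457 to 878 FPKM in WT. Among the adipose genes 0 were called in either direction by limma or limma voom. Among the pancreas genes 0 were called with all 10 libraries, and 3 were lower in DUSP6 KO without WT 73 and 2 without WT 77 or without WT 83. The part of stroma in the levels of Mcpt4 and Tpsb2 was not tested.

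**Figure D4:**
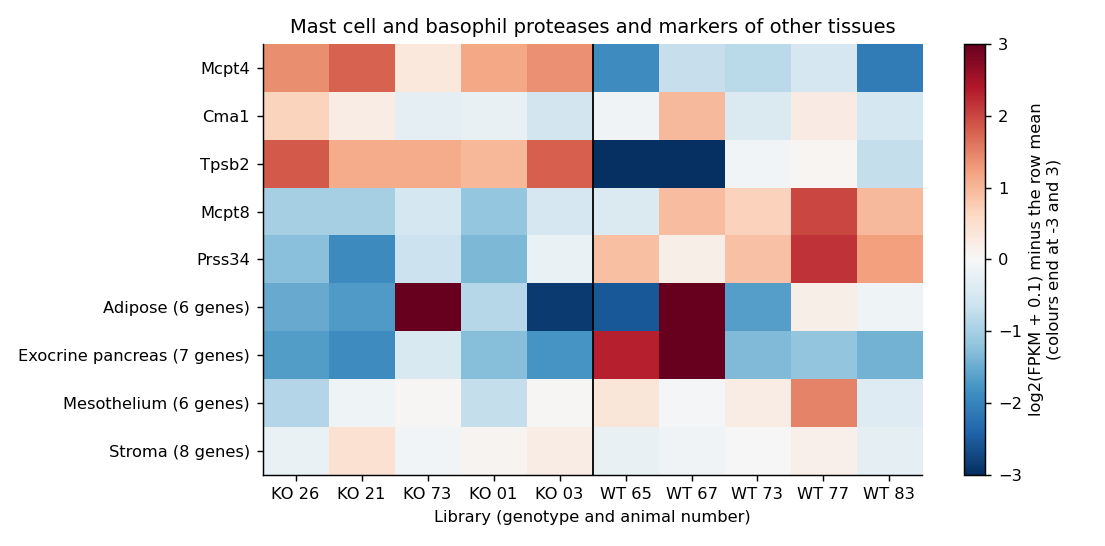
Heat map of log2(FPKM + 0.1) minus the row mean (colour scale ending at -3 and 3) for Mcpt4, Cma1, Tpsb2, Mcpt8 and Prss34 and for the summed FPKM of adipose, exocrine pancreas, mesothelium and stroma genes, in 10 libraries (columns, DUSP6 KO left of the line). Mcpt4 and Tpsb2 are above their row means in the 5 DUSP6 KO libraries, and the adipose sum is high in DUSP6 KO 73 (42.6 FPKM) and WT 67 (55.9 FPKM).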

How the data were processed

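Spleen RNA of 5 DUSP6 KO and 5 WT mice was sequenced; groups and animal numbers come from the labels. Alignment by the authors used Hisat2 and their read counting featureCounts 1.5.0-p3, and they deposited FPKM values of 54532 genes. The submitters' processing notes name the human build hg38, but the gene identifiers are from mouse, and 98.0% of positions were identical to GENCODE M21 (GRCm38), the annotation used here. For Tpsb2 the deposited position is shorter than in GENCODE M21. The FPKM denominator implied by the step size was 0.949 to 1.12 times the library's reads over all genes. Reads recovered from the deposited FPKM came out whole for 100% of values within 0.001 read.

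Values of log2(FPKM + 0.1) were fitted by genotype alone with limma 3.58.1 (eBayes with a mean trend; R 4.3.3) over the 21296 genes whose mean reached 0.1 FPKM. Benjamini-Hochberg adjustment was over all of them, at 0.05. The fit was first tested on simulated data. Each library came from the spleen of a different mouse. The members and gene lists were chosen with earlier results of these data known, so counts past a threshold are a description for both. For the members no p-value or model interval is given. Named are all members, listed genes that were called or that were the extremes of their list, neighbours within 300 kb, and the 5 genes most like Mcpt4 and Tpsb2 by Pearson r, of which 1 is not reported here; Kit and Cpa3 were added after their values were seen. Alternatives were pseudocounts of 1 and 0.01, a mean of at least 1 FPKM, no filter, quantile normalization, limma voom on recovered reads and leaving out each library. Rescaling to read totals and omitting libraries with adipose or pancreas transcripts were chosen after seeing the data. Coding sequences were aligned with blastn 2.17.0. Further tools were data.table, version 1.17.8, Python 3.11.15, numpy 2.4.6, pandas 2.3.3, scipy 1.17.1 and matplotlib 3.10.9.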

Additional observations from a re-analysis of the deposited data

Results flagged for a closer look

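Among 72 groups of 5 libraries examined, 10 held a library whose gap to the nearest other exceeded 0.71 of the group's range. Chance flags about 1 in 20 groups if values are normally distributed. A group with reads in a single library is flagged by construction, so that rate does not hold for all groups here. Mrgprb1 stood at 0.0416 FPKM in WT 73 and 0 in the other WT libraries. The ratio of Tpsb2 to Cma1 was 2.10 in DUSP6 KO 03, with 1.05 the next highest. Tpsg1 stood at 0.148 FPKM in DUSP6 KO 21 alone, Mcpt9 at 0.0902 FPKM in WT 77 alone and Il13 at 0.139 FPKM in WT 83 alone among the libraries of their group, and each of these rests on 3 or 4 reads. Tph1, which makes serotonin in mast cells, stood at 0.0955 FPKM in DUSP6 KO 26, against 0.0250 FPKM in the next. The adipose sum was 42.6 FPKM for DUSP6 KO 73 and 55.9 FPKM for WT 67, the exocrine pancreas sum 14240 FPKM in WT 67, and the mesothelial sum 13.9 FPKM in WT 77.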

How the results depend on the processing

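The log2 difference of Mcpt4 was 2.17 to 2.62 when 1 library was left out and 1.59 with a pseudocount of 1. That of Tpsb2 was 2.32 to 3.10 without 1 library, 1.21 with a pseudocount of 1, 4.13 with 0.01, 3.58 with limma voom and 1.61 without WT 65 and WT 67 together. Tpsab1 (0.67 as computed with 0.1) gave 0.0945 with a pseudocount of 1 and 2.43 with 0.01, and 0.47 to 0.84 without 1 library. Mrgprb1 (0.43) gave 0.0536 and 1.83, and 0.33 to 0.53. These shifts follow from the pseudocount, since the values are low. Cma1 ran from -0.23 to 0.18 without 1 library and from -0.23 to 0.24 over all 19 alternatives, so its direction is not fixed. Mcpt4 and Tpsb2 stayed higher in DUSP6 KO under all 19. Their adjusted calls changed: 1 member was called with a pseudocount of 1, without DUSP6 KO 73, or without DUSP6 KO 73 and WT 67 together. The count of other mast cell genes higher in DUSP6 KO was 0 to 1 without 1 library, being 1 (Mcpt2) without DUSP6 KO 21 or WT 67, and that of basophil genes lower was 2 to 3. After adjustment 1 basophil gene was called without WT 65. With a pseudocount of 0.01, 2 pancreas genes were lower. Over all genes, 15 were called after adjustment, and 34 without DUSP6 KO 21. The split of unadjusted calls was 559 higher and 646 lower, and 650 and 574 after quantile normalization. Tpsab1 and Mrgprb1 have no value in the stricter filter, the quantile fit and limma voom, which left them out. No paired analysis was run, since the labels pair no DUSP6 KO mouse with a WT mouse. Depth limits Tpsab1 and Mrgprb1, with at most 7 reads in a library.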
